A study of Homo sapiens with 18 samples.

Results

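The data described here are the 4 RNA-Seq samples of MCF10A-ErSrc cells that received DMSO and no triptolide (TPL), taken by their labels from the 18 samples of the series: 2 libraries of untransformed (NT) cells and 2 of cells transformed with tamoxifen (TAM). MCF10A-ErSrc is an established line of non-tumorigenic human breast epithelium. It carries the viral Src kinase fused to the ligand-binding domain of the estrogen receptor, so that tamoxifen switches the kinase on. Both groups carried the fusion and grew in medium with EGF, insulin, hydrocortisone, cholera toxin and puromycin, and both were incubated with DMSO for 4 h. They differ in tamoxifen, so that the drug and the active kinase cannot be told apart. Of the other samples, 4 RNA-Seq libraries of NT and TAM cells incubated with TPL for 4 h and the RNA polymerase II (RNAPII) peak lists of cells without TPL are used for comparison. The libraries of a group are described as independent biological replicates, and all come from this one line.

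Src is a tyrosine kinase at the cell membrane that phosphorylates components of focal adhesions, adherens junctions and growth factor signalling. In this line its activation is known for a loop of inflammatory signalling in which NF-kB, IL6 and the transcription factor STAT3 sustain the transformed state. SOCS3 is a classical target and feedback inhibitor of STAT3 signalling, while keratins, claudins and cornified envelope proteins are the structural products of breast and squamous epithelium.

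The 4 libraries held between 8099426 and 8349448 expected counts, the reads that the authors' program assigned to each gene. Pearson correlations of log2 CPM were 0.928 between the NT libraries and 0.925 between the TAM libraries, against 0.881 to 0.893 between NT and TAM libraries. Levels are given below in FPKM, which divide the counts by transcript length and library total, with both libraries of a group in order of replicate number. SRC mRNA stood at 27.9 and 36.4 FPKM in NT and at 14.8 and 10.7 in TAM cells (log2 fold change -1.32 ± 0.26, adjusted p = 0.0276). ESR1, the estrogen receptor gene, stood at 199.7 and 248 FPKM in NT and at 95.3 and 68.5 in TAM cells (-1.44 ± 0.25, adjusted p = 0.0198). Reads of the fusion may be assigned to either gene and cannot be told apart from those of the endogenous genes, and neither level measures the activity of the kinase. Without 1 library, whichever of the 4 it was, neither gene passed an adjusted p of 0.05.

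The labelled cell type was checked against marker lists. All 8 markers of basal breast epithelium were above 1 FPKM in every library, and their summed level was 14958 and 13321 FPKM in NT against 3908.5 and 3571 in TAM cells. The keratins KRT5 and KRT17 made most of these sums. Of the 8 markers, 3 were lower and 0 higher at an adjusted p of 0.05, and 2 had a log2 fold change above 0. These 2 were LAMB3 (266 and 286 FPKM in NT, 488 and 396 in TAM cells) and TP63 (13.2 and 23.6, then 24.2 and 23.0). Of 9 luminal markers listed, 4 were under 1 FPKM in every library, among them KRT19, PGR and ELF5. The luminal markers summed to 949.8 and 891 FPKM in NT and to 656 and 618.5 in TAM cells. Of these sums ESR1, whose reads may include those of the fusion, made 199.7 and 248 in NT and 95.3 and 68.5 in TAM cells. The summed level of the 8 fibroblast markers was between 20.3 and 24.7 FPKM, and of 5 endothelial markers between 1.07 and 1.41. The 6 blood cell markers summed to 58.8 and 56.7 FPKM in NT and to 309 and 288 in TAM cells, of which CD68, a lysosomal membrane protein, made 301 and 281. The leukocyte gene PTPRC did not exceed 0.71 FPKM in a library. The part of other cells in the differences below was not tested beyond these levels.

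Counts were compared with edgeR's quasi-likelihood test in a single fit with the TPL libraries, and p values were adjusted over the 16948 entries tested. An entry is a gene ID or RefSeq accession of the deposited tables. At an adjusted p of 0.05, 586 entries (3.46% of those tested) were higher and 574 (3.39%) lower in TAM than in NT cells. These shares are the background for the counts in gene lists given below, which were not tested as sets. Members and lists were chosen with earlier results of these data known, so the counts describe the lists and are no support for them. The stricter rule of an adjusted p of 0.001 and a log2 fold change of 1.2 in size left 64 higher (0.378%) and 47 lower (0.277%). The strict rises were larger, with a median log2 fold change of 3.76 against 2.92 in size for the falls, and 20 of the 64 rises but 2 of the 47 falls reached 5. The median over all entries was -0.03. Of the 64 strict rises, 63 were of protein-coding genes and 1 of a long non-coding RNA.

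In FPKM, both TAM libraries lay above both NT libraries in all 64 strict rises (24% of all entries tested did) and below them in all 47 strict falls (28.7% did). The strict calls were made from these same libraries, so their lack of overlap is no separate support. The fits that follow reuse the libraries at a wider threshold and are no separate support either. All 111 strict calls also passed an adjusted p of 0.05 with any 1 of the 4 libraries left out, and in a fit of these 4 libraries alone. The strict rule itself then called 0 to 4 entries, and an adjusted p of 0.05 called 235 higher and 246 lower without NT replicate 1, 231 and 227 without NT replicate 2, 225 and 219 without TAM replicate 1, and 225 and 206 without TAM replicate 2. With GAPDH as the reference gene, the median over all entries moved to -0.5 and the split at 0.05 turned to 321 higher and 1687 lower. GAPDH itself stood at 2934 and 2443 FPKM in NT and at 3677 and 3634 in TAM cells (0.46 ± 0.14, adjusted p = 0.117).

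**Figure D1:**
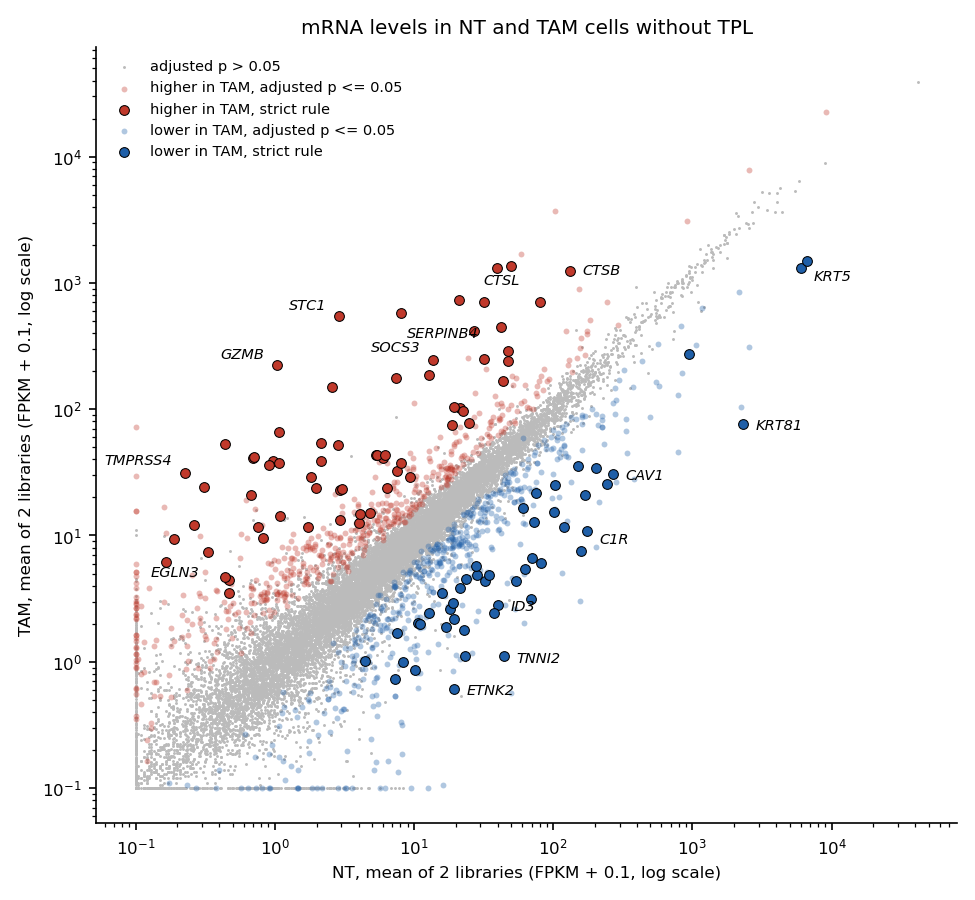
Mean FPKM of the 2 NT libraries (x axis) against the mean of the 2 TAM libraries (y axis), both plus 0.1 and on log scales, for the entries tested. Large outlined points are the strict calls (64 higher, 47 lower), small coloured points the other calls at an adjusted p of 0.05, and grey points the rest. GZMB and STC1 rose from low levels while KRT5 and KRT81 fell from high ones.

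Among strict calls that averaged 1 FPKM or more, the genes with the largest rises belonged to unlike families, and most stood under 3 FPKM in NT cells. TMPRSS4, a serine protease anchored in the cell membrane, stood at 0.07 and 0.18 FPKM in NT and at 33.3 and 29.1 in TAM cells, which gave a log2 fold change with its standard error of 7.97 ± 0.27 (adjusted p = 5.79e-05). GZMB, the granule protease known from cytotoxic lymphocytes, went from 1.2 and 0.67 FPKM to 243 and 201 (7.88 ± 0.36, adjusted p = 9.13e-05), with the T cell gene CD3E at 0.16 FPKM or less in the 4 libraries. STC1, a secreted glycoprotein hormone, reached the highest level of these, from 2.91 and 2.64 to 543 and 553 FPKM (7.64 ± 0.17, adjusted p = 1.18e-05). In each of the 3 genes both TAM libraries lay far above both NT libraries. When any 1 library was left out, the log2 fold change was 7.48 to 8.74 for TMPRSS4, 7.52 to 8.36 for GZMB and 7.57 to 7.72 for STC1. TMPRSS4 had 2 and 5 counts in the NT libraries and GZMB 9 and 5, so the size of their folds is uncertain. The range of TMPRSS4 is wide beside its standard error.

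DYSF, which encodes the membrane repair protein dysferlin, rose from 0.24 and 0.44 to 59.8 and 46.9 FPKM (7.29 ± 0.34). CHGB, a protein of neuroendocrine secretory granules, rose from 0.14 and 0.28 to 24.6 and 23.9 FPKM (6.85 ± 0.28). ENKUR, a ciliary protein, stood at 0.09 and 0.04 FPKM in NT and at 4.94 and 7.22 in TAM cells. With 3 counts or fewer in each NT library, its fold is a lower bound of 44 against a floor of 3 counts per library. ENTPD3, an enzyme that hydrolyses extracellular nucleotides, rose from 0.09 and 0.24 to 11.8 and 12.1 FPKM (6.47 ± 0.30). CHGB had 3 and 6 counts in the NT libraries and ENTPD3 2 and 4, so the size of these folds is uncertain too. With 1 library left out, their log2 fold changes were 6.44 to 7.41 and 6.07 to 7.02.

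TNC, the matrix glycoprotein tenascin-C, rose from 0.88 and 1.05 to 75.9 and 56.9 FPKM (6.12 ± 0.28). CLEC2B, a C-type lectin, rose from 0.54 and 0.66 to 39.5 and 42.9 FPKM (6.10 ± 0.23), and EVI2B, a membrane protein encoded within an intron of NF1, from 0.49 and 0.74 to 37.3 and 46.0 (6.08 ± 0.29). FGL1, a fibrinogen-like secreted protein, rose from 0.79 and 0.83 to 37.3 and 35.1 FPKM (5.45 ± 0.40). PPP2R2C, a regulatory subunit of protein phosphatase 2A, rose from 0.82 and 0.93 to 40.4 and 37.1 FPKM (5.44 ± 0.33). The groups did not overlap in any of these genes, which the rule that named them required. Their adjusted p was highest for FGL1, at 0.000609.

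**Figure D2:**
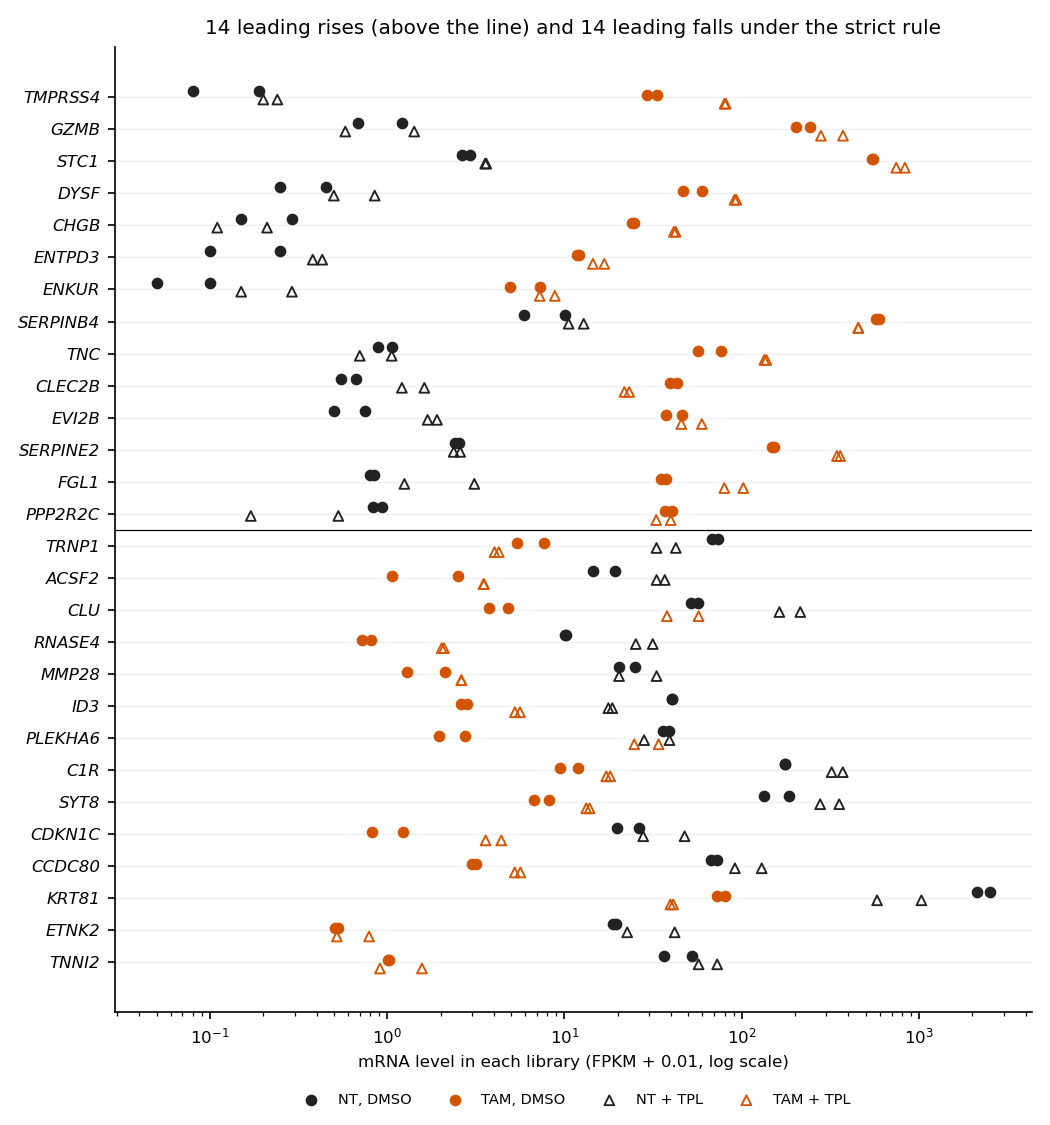
FPKM plus 0.01 (log scale) in each library of 14 of the 15 largest rises, above the line, and 14 of the 15 largest falls, below it; circles are libraries with DMSO and triangles libraries with TPL, black for NT and orange for TAM cells. TMPRSS4 lay at 33.3 and 29.1 FPKM in TAM cells against 0.07 and 0.18 in NT cells, and KRT81 at 80.2 and 72.6 against 2525 and 2123.

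Protease inhibitors of the serpin family were among the strongest rises. Of 12 clade B serpins tested, 3 rose and 1 fell, and the list median was -0.03. SERPINB4 stood at 5.93 and 10 FPKM in NT and at 569.7 and 593 in TAM cells (6.19 ± 0.28, adjusted p = 9.13e-05). SERPINB3 stood at 22.5 and 19.4 FPKM in NT and at 712 and 747 in TAM cells (5.14 ± 0.15, adjusted p = 3.07e-05). These neighbours on chromosome 18 encode the squamous cell carcinoma antigens, inhibitors of serine and cysteine proteases. Their mRNAs are close copies, so that the share of reads each received is uncertain. SERPINB1, an inhibitor of neutrophil proteases, rose from 28.4 and 25.5 to 402 and 435 FPKM (3.98 ± 0.19), and SERPINB5, known as maspin, fell from 254 and 305 to 142 and 155 (-0.90 ± 0.16, adjusted p = 0.0217). The fall of SERPINB5 was lost with any 1 of the 4 libraries left out.

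The likeness of both genes extends to their promoters, and these are shown because the pair rose together and neither start lay in a listed RNAPII peak of NT cells while both did in TAM cells. The windows run from 250 bases before to 50 bases after the start and come from RefSeq on GRCh38.p14, both on the minus strand, SERPINB3 at chr18:63661844-63662143 and SERPINB4 at chr18:63644207-63644506. Capitals mark the 4 of 300 bases that differ (98.7% are equal). Short reads of RNAPII can be placed on either promoter with uncertainty, so that both peaks may not be separate observations.
SERPINB3: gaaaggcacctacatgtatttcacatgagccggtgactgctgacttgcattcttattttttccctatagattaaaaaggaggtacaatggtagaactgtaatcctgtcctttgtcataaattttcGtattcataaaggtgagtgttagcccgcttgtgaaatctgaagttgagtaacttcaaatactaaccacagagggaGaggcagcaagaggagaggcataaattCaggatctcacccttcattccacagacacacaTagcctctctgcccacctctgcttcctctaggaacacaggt
SERPINB4: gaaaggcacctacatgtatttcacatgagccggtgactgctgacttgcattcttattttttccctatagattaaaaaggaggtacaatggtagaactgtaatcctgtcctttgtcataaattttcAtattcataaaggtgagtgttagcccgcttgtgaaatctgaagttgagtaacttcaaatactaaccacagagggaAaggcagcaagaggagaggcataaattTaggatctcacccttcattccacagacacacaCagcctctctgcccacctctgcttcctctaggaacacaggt

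Of 26 genes of matrix proteolysis and plasminogen activation tested, 5 rose and 5 fell (median log2 fold change 0.13), and 4 of the rises were strict calls. SERPINE2, an inhibitor of thrombin and plasminogen activators, rose from 2.40 and 2.52 to 148 and 153 FPKM (5.95 ± 0.16, adjusted p = 1.94e-05). The lysosomal protease CTSL rose from 28.2 and 34.8 to 674 and 739 FPKM (4.49 ± 0.16, adjusted p = 5.79e-05), and ADAM19, a membrane metalloprotease, from 0.48 and 0.84 to 11.6 in both libraries (4.15 ± 0.32). CTSB reached 1255 and 1215 FPKM in TAM cells from 136 and 129 (3.24 ± 0.12). Among 13 cathepsins, a list added after the values were seen, CTSB and CTSL rose, while CTSD, CTSF and CTSH were among 4 that fell. Without NT replicate 1, NT replicate 2, TAM replicate 1 and TAM replicate 2 the falls in this list were 1, 2, 0 and 1, while both rises passed in all 4 fits. MMP28 fell from 24.9 and 20.4 to 1.29 and 2.11 FPKM (-3.83 ± 0.32) and TIMP3, a matrix-bound inhibitor of metalloproteases, from 25.3 and 31.2 to 4.64 and 4.93 (-2.54 ± 0.18). MMP3, known as stromelysin, fell from 13.7 and 16.1 to 3.07 and 2.45 FPKM (-2.41 ± 0.28, adjusted p = 0.00364).

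Signalling through IL6 and STAT3 was followed by mRNA levels, from ligand to target. These levels do not measure the phosphorylation of STAT3. The authors probed phosphorylated STAT3 by western blot, as a control of transformation, in a fraction of the cells collected for RNA-Seq. IL6 had no count in one NT library and stood at 0.1 FPKM in the other, against 2.93 and 2.23 in TAM cells. Its fold has a lower bound of 8.34, and the fitted difference did not pass the test (adjusted p = 0.072). STAT3 mRNA stood at 38.1 and 42.5 FPKM in NT and at 53.4 and 50.8 in TAM cells (0.38 ± 0.13, adjusted p = 0.176, and -0.10 with GAPDH as the reference). SOCS3 stood at 12.8 and 14.4 FPKM in NT and at 268 and 222 in TAM cells (4.19 ± 0.19, adjusted p = 9.13e-05), with both TAM libraries far above both NT libraries. SOCS3 lies at chr17:76352859-76356158 of hg19 on the minus strand. PIM1, a kinase gene that STAT3 can induce, fell from 12.5 and 14.7 to 2.98 and 2.43 FPKM (-2.31 ± 0.31, adjusted p = 0.00684). SOCS3 and PIM1 were the 2 of 18 genes of the pathway tested that passed an adjusted p of 0.05, and the list median was 0.06. PIM1 no longer passed without NT replicate 2, nor without TAM replicate 2.

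Among other secreted signals, 2 of 20 interleukins and related cytokines rose and 3 fell (median 0.18). IL24, a cytokine of the IL10 family, rose from 2.44 and 1.69 to 42.5 and 34.5 FPKM (4.32 ± 0.20), and CSF3, the granulocyte colony-stimulating factor, from 31.6 and 32.2 to 255 and 239.6 (2.97 ± 0.24). IL18 fell from 111 and 95.6 to 24.4 and 25.4 FPKM (-2.04 ± 0.14), and IL1RN, the natural antagonist of the IL1 receptor, from 24.8 and 26.1 to 4.37 and 4.88 (-2.43 ± 0.38). IL32 fell from 15.8 and 8.51 to 2.04 and 2.52 FPKM (-2.33 ± 0.52, adjusted p = 0.0445). Of 9 chemokines tested, CXCL3, CXCL2 and CXCL8, which attract neutrophils, rose, and CCL28 fell. CXCL3 went from 43.8 and 50.6 to 249 and 233 FPKM (2.37 ± 0.18), CXCL2 from 181 and 167 to 388 and 398 (1.19 ± 0.25), and CXCL8 from 41.6 and 39.2 to 82.2 and 83.3 (1.05 ± 0.18). CXCL3 kept its call with any 1 library left out, and the other 3 chemokines and IL1RN and IL32 did not pass in any of those 4 fits.

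Of 19 NF-kB subunits, inhibitors and feedback targets, 1 rose and 1 fell (median -0.11), where 3.46% and 3.39% of all entries did. BCL3, an atypical inhibitor that binds p50 and p52, rose from 57.7 and 43.8 to 191 and 176 FPKM (1.87 ± 0.28, adjusted p = 0.01). TNIP1 fell from 45.4 and 48.2 to 25.3 and 27.1 FPKM (-0.81 ± 0.16, adjusted p = 0.0277). BCL3 passed in 1 and TNIP1 in 0 of the 4 fits that each left out a library. Of 49 interferon-stimulated genes, 13 rose and 0 fell, with a median log2 fold change of 0.66. Members of this list encode antiviral effectors. OAS2 rose from 0.4 FPKM in both libraries to 2.54 and 3.05 (2.92 ± 0.44), IFIT1 from 0.75 and 0.73 to 3.09 and 3.82 (2.22 ± 0.36), and RSAD2 from 0.56 and 0.88 to 3.61 and 2.84 (2.19 ± 0.44). These levels are low, none of the 3 passed with a library left out, and the count for the list was then 1 or 2. With GAPDH as the reference 5 members were higher and 2 lower.

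Among strict calls, the largest falls covered a muscle protein, lipid enzymes, matrix proteins and regulators of growth. TNNI2, the fast skeletal troponin I, fell from 52.4 and 36.4 to 1 and 1.01 FPKM (-5.42 ± 0.36, adjusted p = 0.000476). ETNK2, an ethanolamine kinase, fell from 18.9 and 19.6 to 0.52 and 0.50 FPKM (-5.24 ± 0.37), and ACSF2, an acyl-CoA synthetase, from 19.4 and 14.4 to 2.51 and 1.06 (-3.52 ± 0.29). CCDC80, a secreted matrix protein, fell from 66.7 and 72.6 to 3.14 and 3 FPKM (-4.52 ± 0.20). The groups did not overlap in any of these 4 genes, which the rule that named them required.

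CDKN1C, which encodes the CDK inhibitor p57, fell from 26.2 and 19.8 to 1.22 and 0.81 FPKM (-4.49 ± 0.36). It was 1 of 2 members of a list of 13 D cyclins, CDK4/6 and CDK inhibitors to pass, with CCND2 (36.5 and 44.8 to 11.3 and 11 FPKM). SYT8, a synaptotagmin, fell from 184 and 134 to 8.19 and 6.74 FPKM (-4.40 ± 0.25), and PLEKHA6, a protein of cell contacts, from 35.9 and 39.0 to 2.73 and 1.94 (-3.99 ± 0.27). RNASE4, a secreted ribonuclease, fell from 10 and 10.2 FPKM to 0.80 and 0.71 (-3.69 ± 0.27) and TRNP1, a nuclear protein, from 73.9 and 67.9 to 5.40 and 7.62 (-3.43 ± 0.21). RNASE4 shares its first exons with ANG, and the division of reads between them is uncertain.

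Complement components were among the falls, in a list of 20 components and regulators added after the values were seen, in which 5 rose and 5 fell (median -0.45). C1R, a serine protease of the C1 complex, went from 176 FPKM in both NT libraries to 11.9 and 9.45 (-4.03 ± 0.18, adjusted p = 9.13e-05), and C3, the central component, from 159 and 180.1 to 20.9 and 20.6 (-3.01 ± 0.24). CLU, the chaperone and complement inhibitor clusterin, fell from 56.4 and 52.0 to 4.80 and 3.73 FPKM (-3.65 ± 0.26). These 3 falls and that of C1S, the partner of C1R (-2.74), were strict calls. In the other direction, SERPING1, the C1 inhibitor, rose from 0.40 and 0.34 to 4.18 and 4.26 FPKM (3.51 ± 0.45). The membrane-bound regulators CD59 (42.4 and 43.9 to 103 and 107 FPKM) and CD55 (76.7 and 81.2 to 159 and 175) rose as well, as did C4A and CFI. SERPING1 did not pass in 1 and CD55 not in 3 of the 4 fits that each left out a library.

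Keratins, the intermediate filaments of epithelium, fell more often than they rose. Of 19 tested, 12 fell and 1 rose, with a median log2 fold change of -1.72, and their summed level was 23035 and 20499 FPKM in NT against 8265 and 8616 in TAM cells. KRT5 fell from 6249.6 and 5776 to 1308 FPKM in both libraries (-2.18, adjusted p = 0.000366), KRT17 from 7284 and 6144 to 1554 and 1408 (-2.16, adjusted p = 0.000505), and KRT14, the partner of KRT5 in basal cells, from 604 and 499.6 to 179 and 148 (-1.74, adjusted p = 0.0176). KRT81, a hair keratin, fell from 2525 and 2123 to 80.2 and 72.6 FPKM (-4.91 ± 0.28, adjusted p = 0.000243), but shares reads with its close copy KRT86. KRT15, another basal keratin, fell from 63.7 and 59.1 to 2.19 and 1.68 FPKM (-4.97 ± 0.45), and KRT13 from 3.90 and 5.73 to 0.08 and 0.21, a fall of at least 22.6-fold. KRT13 and KRT14 did not pass in any fit that left out a library. The exception was KRT6C, from 5.45 and 5.12 to 44.2 and 43.0 FPKM (3.06 ± 0.20), whose reads can be confused with those of KRT6A and KRT6B. With a library left out, 7, 6, 6 and 6 keratins fell without NT replicate 1, NT replicate 2, TAM replicate 1 and TAM replicate 2.

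Some other products of differentiated epithelium fell. Of 23 genes of the cornified envelope and squamous differentiation, 8 fell and 0 rose (median -2.10). SBSN, suprabasin, fell from 9.53 and 6.31 to 0.30 and 0.17 FPKM (-4.84 ± 0.63), CRCT1 from 12.6 and 9.50 to 0.53 and 0.89 (-3.90 ± 0.57), and SPRR2D, a cornified envelope precursor, from 46.2 and 46.8 to 3.35 and 4.81 (-3.51 ± 0.76). Of 33 genes of desmosomes, adherens and tight junctions, 9 fell and 0 rose (median -0.75). The tight junction protein CLDN1 fell from 184 and 221 to 7.80 and 8.33 FPKM (-4.63 ± 0.44, adjusted p = 0.00167), CLDN4 from 20.5 and 19.4 to 0.51 and 1.55 (-4.25 ± 0.84), and CGN, cingulin, from 4.18 and 5.54 to 0.44 in both (-3.45 ± 0.47). Without NT replicate 1, NT replicate 2, TAM replicate 1 and TAM replicate 2 the falls in the first list numbered 3, 4, 3 and 2 and those in the second 4, 2, 2 and 2, and CLDN1 and SBSN passed in all 4 fits. CRCT1, SPRR2D and CLDN4 passed in 0 of them and CGN in 1.

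The S100 proteins, small calcium-binding proteins, gave the opposite picture for 3 of 14 members. S100A9 went from 120.1 and 86.1 to 3769.5 and 3588 FPKM (5.17 ± 0.44, adjusted p = 0.00104) and its partner in calprotectin, S100A8, from 70.6 and 47.4 to 1609 and 1764 (4.85 ± 0.42, adjusted p = 0.00118). Both just missed the strict rule and passed an adjusted p of 0.05 with any 1 library left out. S100P rose from 16.1 and 12.5 to 45.3 and 52.6 FPKM (1.79 ± 0.34), and S100A14 fell from 606 and 534 to 316 and 342 (-0.77 ± 0.15), both losing the call in each of those fits.

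Adhesion to the matrix changed by gene rather than by list. Of 21 laminins, integrins and hemidesmosome genes, 2 rose and 3 fell (median -0.31). LAMB1 rose from 23.4 and 31.1 to 140.2 and 130.4 FPKM (2.33 ± 0.24) and ITGA3 from 159.9 and 176 to 293 and 246 (0.70 ± 0.15), while DST, ITGB8 and LAMB2 fell, by 1.42, 1.38 and 0.97 on the log2 scale. LAMB1 alone of these 5 passed in all 4 fits that left out a library, while ITGA3 and LAMB2 passed in 0. Of 24 Src family kinases and focal adhesion genes, 4 rose and 5 fell. CAV1, the caveolar coat protein and a Src substrate, fell from 252 and 282 to 28.3 and 33.3 FPKM (-3.11 ± 0.19, adjusted p = 0.000313). VCL, vinculin, fell from 98.7 and 126 to 40.5 and 42.6 FPKM (-1.42 ± 0.16), and PTK2B, a kinase related to FAK, from 26.6 and 29.1 to 11.5 and 10.4 (-1.33 ± 0.14). BCAR1, the Src substrate p130Cas, rose from 32.8 and 33.9 to 70.9 and 57.2 FPKM (0.96 ± 0.20), and ITGA5, a fibronectin receptor subunit, from 74.9 and 76.3 to 139 and 127 (0.83 ± 0.13), and neither passed with a library left out.

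Of 18 collagens, 6 fell and 0 rose (median -0.19), among them COL4A6 from 7.03 and 7.95 to 1.75 and 1.46 FPKM (-2.23 ± 0.16), COL7A1, the anchoring fibril collagen, from 2.29 and 2.52 to 0.49 and 0.57 (-2.17 ± 0.18), and COL1A1 from 3.90 and 3.80 to 0.50 and 0.58 (-2.82 ± 0.45), which did not pass with any library left out. Of 18 mesenchymal genes and factors of the epithelial-mesenchymal transition, 2 rose and 1 fell, with a median of 0.14. Besides TNC, described above, ZEB1 rose from 1.56 and 1.63 to 4.74 and 4.30 FPKM (1.5 ± 0.19), and TAGLN, a smooth muscle actin-binding protein, fell from 381 and 291 to 65.2 and 68.7 (-2.32 ± 0.20).

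Among genes of the cell cycle, most members of the mitosis list rose. Of 44 genes of mitosis and G2/M, 34 rose and 0 fell, 3 of them under the strict rule, and 42 had a log2 fold change above 0. The list median was 2.02 and the summed level 246 and 225 FPKM in NT against 561 and 597 in TAM cells. CDC25C, the phosphatase that activates CDK1, rose from 0.12 and 0.19 to 1.58 and 2.19 FPKM, a rise of at least 11.3-fold, DLGAP5, a spindle protein, from 0.36 and 0.41 to 4.17 and 3.82 (3.37 ± 0.34, adjusted p = 0.00208), and HMMR from 0.59 and 0.13 to 2.12 and 2.76 (2.83 ± 0.63). Of 54 genes of G1/S and DNA replication, 21 rose and 0 fell, with a median of 1.17 and 53 values above 0. CDC45, part of the replicative helicase, rose from 0.43 and 0.13 to 3.95 and 3.29 FPKM (3.64 ± 0.73), CHAF1A, a histone chaperone, from 2.67 and 2.49 to 11.1 and 8.78 (1.96 ± 0.21), and MCM5, a helicase subunit, from 2.48 and 2.15 to 9.45 and 7.29 (1.87 ± 0.34). CDC45 and MCM5 passed in 0 of the 4 fits that left out a library, HMMR in 1 and CDC25C in 3. The mitosis count was 18, 13, 18 and 16 and the replication count 3, 4, 3 and 5 without NT replicate 1, NT replicate 2, TAM replicate 1 and TAM replicate 2, and 23 and 7 with GAPDH as the reference. Of 24 replication-dependent histones tested, 0 rose and 2 fell, H2AC18 and H2AC19, identical copies whose reads the counting shared equally (both 76.3 and 76.2 FPKM in NT, 35.8 and 39.0 in TAM cells). Their log2 fold change was -1.08 to -0.95 with a library left out. The libraries were made from polyadenylated RNA, so these values do not measure histone mRNAs without a poly(A) tail. Of 53 histones listed, 37 and 35 were under 1 FPKM in NT and 30 and 37 in TAM cells.

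Immediate early genes and the feedback inhibitors of ERK moved in both directions. Of 24 AP-1 and immediate early genes, 1 rose and 5 fell (median -0.24). BATF3, a partner of JUN proteins, rose from 5.82 and 5.20 to 39.9 and 36.0 FPKM (2.80 ± 0.28). The nuclear receptor NR4A1 fell from 83.6 and 40.3 to 5.67 and 4.04 FPKM (-3.37 ± 0.37), MYC from 532 and 623 to 154 and 148 (-1.92 ± 0.24, adjusted p = 0.0048), and MAFF from 30.1 and 20.7 to 8.45 and 7.83 (-1.66 ± 0.20). Of 19 ERK feedback genes, 4 rose and 3 fell (median 0.22). DUSP6, a phosphatase of ERK, rose from 14.9 and 21.7 to 46.4 FPKM in both libraries (1.36 ± 0.21), as did SPRED3 (2.18 ± 0.29) and ETV4 (2.13 ± 0.43), while DUSP10, DUSP2 and DUSP5 fell, by 1.56, 1.46 and 1.04. Of 12 EGF family ligands and receptors, 0 rose and 2 fell, the ligands EPGN (-1.11 ± 0.21) and AREG (-0.97 ± 0.20). With a library left out, BATF3 and NR4A1 passed in all 4 fits, MAFF and SPRED3 in 3, MYC in 2, ETV4, DUSP6, DUSP10 and EPGN in 1, and DUSP2, DUSP5 and AREG in 0.

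Targets of YAP and TEAD, the effectors of the Hippo pathway, were all on the lower side: 16 of 16 had a log2 fold change below 0, 6 fell at an adjusted p of 0.05 and the median was -1.01. The falls numbered 5, 3, 4 and 4 without NT replicate 1, NT replicate 2, TAM replicate 1 and TAM replicate 2. CCN1 fell from 78.4 and 127 to 15.6 and 16.4 FPKM (-2.67 ± 0.24), AMOTL2 from 65.4 and 79.1 to 11.4 and 13.3 (-2.53 ± 0.22), and CRIM1 from 23.2 and 36.5 to 5.10 and 5.34 (-2.50 ± 0.27). Of 23 genes of the TGF-beta and BMP pathway, 2 rose and 5 fell, 3 of them under the strict rule. The BMP target ID3, an inhibitor of helix-loop-helix factors, fell from 40.4 and 40.2 to 2.61 and 2.80 FPKM (-3.88 ± 0.18, adjusted p = 9.13e-05), and its relative ID2 from 16.5 and 19.4 to 3.01 and 1.98 (-2.83 ± 0.22). TGFBR3, a co-receptor, fell (-2.38 ± 0.31), and the ligands BMP2 (1.80 ± 0.32) and TGFB1 (0.77 ± 0.17) rose. BMP2 and TGFB1 did not pass with any of the 4 libraries left out.

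Of 24 Wnt pathway genes, 0 rose and 2 fell, both secreted antagonists: DKK1 from 103 and 129 to 3.50 and 6.35 FPKM (-4.54 ± 0.59) and SFRP1 from 51.0 and 70.1 to 13.3 and 11.5 (-2.27 ± 0.25). Of 18 Notch pathway genes, 0 rose and 4 fell, among them HES2 (-2.42 ± 0.17), the glycosyltransferase MFNG (-3.20 ± 0.57) and NOTCH1 (18.4 and 24.7 to 9.96 and 7.54 FPKM). Of 11 IGF binding proteins and insulin receptors, 0 rose and 3 fell. IGFBP3 fell from 5.05 and 5.44 to 0.32 and 0.96 FPKM (-3.01 ± 0.50), IRS2, a docking protein of the insulin receptor, by 1.57, and IGFBP6 by 1.33 on the log2 scale. SFRP1 and HES2 passed in all 4 fits that left out a library, DKK1 and IRS2 in 3, IGFBP3 in 2, MFNG and IGFBP6 in 1 and NOTCH1 in 0.

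Of 35 genes of the hypoxia response and glycolysis, 10 rose and 1 fell (median 0.35). EGLN3, a prolyl hydroxylase that marks HIF subunits, rose from 0.23 FPKM in both libraries to 6.77 and 7.84 (5 ± 0.33, adjusted p = 0.000468), ENO2 from 0.51 and 0.41 to 5.76 and 7.40 (3.85 ± 0.34), and PFKFB3, a regulator of glycolysis, from 7.46 and 7.56 to 33.4 and 31.3 (2.16 ± 0.13, adjusted p = 0.000347). PFKP, a phosphofructokinase, fell from 85.3 and 87.1 to 59.9 and 53.7 FPKM (-0.59 ± 0.13, adjusted p = 0.0487). With any 1 library left out, 6 or 7 of the rises passed and the fall of PFKP did not. Of 30 genes of the ATF4 and unfolded protein response, 4 rose and 3 fell. PHGDH, which opens serine synthesis, rose from 2.32 and 1.77 to 53.5 and 53.9 FPKM (4.73 ± 0.21, adjusted p = 9.13e-05), as did ASNS (1.49 ± 0.16) and CEBPB (1.25 ± 0.26). SLC7A5 and SLC3A2, the subunits of a transporter of large amino acids, fell from 724 and 854 to 149 and 111 FPKM (-2.59 ± 0.29) and from 230.4 and 216 to 85.5 and 91.0 (-1.32 ± 0.12), and XBP1 fell by 0.73. CEBPB and XBP1 did not pass with a library left out.

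Of 27 NRF2 pathway and antioxidant genes, 1 rose and 6 fell. FTH1, the ferritin heavy chain, rose from 2801 and 2327 to 7315 and 8363 FPKM (1.63 ± 0.14), and ABCC2, an efflux transporter (-2.65 ± 0.31), NQO1 (-1.46 ± 0.22) and GCLC (-0.96 ± 0.17) fell. In a list of 4 metallothioneins added after the values were seen, 3 rose: MT1F from 46.3 and 37.7 to 447 and 452 FPKM (3.44 ± 0.20), MT1X (1.77 ± 0.26), and MT2A from 10608 and 7684 to 22306 and 23100 (1.33 ± 0.26). MT1X and MT2A, with KLF9, were also the 3 rises among 17 glucocorticoid-responsive genes, where TFCP2L1, PER1 and TSC22D3 fell. Of 16 heat shock proteins, HSPB1 fell from 2946 and 2125 to 307 and 309.5 FPKM (-3.02 ± 0.36) and HSPA1A rose (0.81 ± 0.14). FTH1, ABCC2, MT1F and HSPB1 passed in all 4 fits that left out a library, NQO1, MT1X, KLF9 and PER1 in 1, TFCP2L1 in 3, and GCLC, MT2A, TSC22D3 and HSPA1A in 0. HSPA1A has a near-identical copy, and its reads cannot be told apart from those of HSPA1B with certainty.

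In the remaining lists few members were called, where 3.46% of all entries rose and 3.39% fell. The falls among the respiratory chain subunits lay near that share. Of 25 p53 targets, PMAIP1 (1.47 ± 0.14) and RRM2B (1.08 ± 0.21) rose, and PHLDA3 (-1.38 ± 0.14), SFN (-1.32 ± 0.19) and GADD45A (-1.09 ± 0.18) fell. Of 32 genes of cholesterol and fatty acid synthesis, HSD17B7 rose (2.58 ± 0.27) and 4 fell, among them FADS2 (-2.11 ± 0.29), HMGCS1 (-1.29 ± 0.20) and LSS (-1.10 ± 0.13). Of 11 estrogen-responsive genes, 0 rose and 3 fell, AREG, XBP1 and ESR1, given above. The reads of ESR1 may include those of the fusion. With a library left out, PMAIP1, PHLDA3 and HSD17B7 passed in all 4 fits, LSS in 3, SFN, GADD45A, FADS2 and HMGCS1 in 1 and RRM2B in 0. Of 72 respiratory chain subunits, 0 rose and 2 fell, UQCRC1 (-0.80 ± 0.16) and COX6A1 (-0.65 ± 0.13), neither with a library left out. Of 79 cytosolic ribosomal proteins, 0 rose and 0 fell, although 78 had a log2 fold change above 0 (median 0.36). Their summed level also differed within a group, at 102736 and 83103.5 FPKM in NT and 115532 and 125834 in TAM cells. With GAPDH as the reference 16 of the 79 were above 0 (median -0.09).

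**Figure D3:**
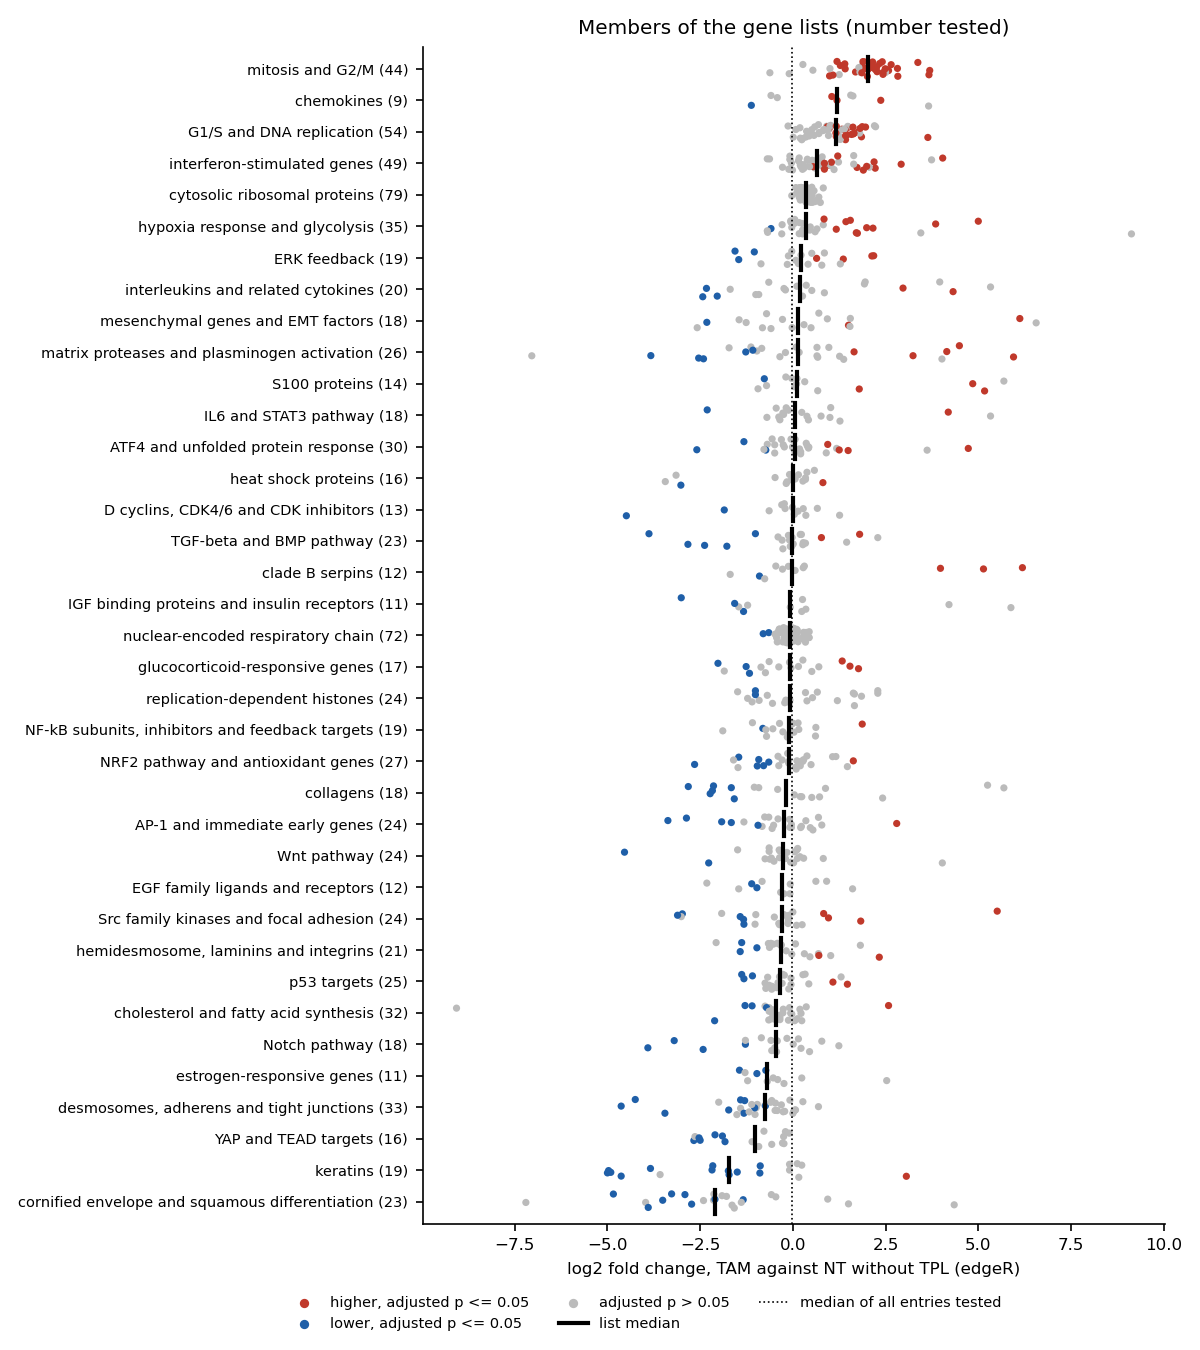
Log2 fold change of TAM against NT cells without TPL (x axis) for each member tested of the 37 gene lists (rows, with the number tested), red for higher and blue for lower at an adjusted p of 0.05, with the list median as a bar and the median of all entries (-0.03) as a dotted line. The medians run from 2.02 for mitosis and G2/M to -2.10 for cornified envelope and squamous differentiation.

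The same comparison was made in 4 libraries that share no sample with the above, TAM + TPL against NT + TPL, where 479 entries (2.83%) were higher and 713 (4.21%) lower at an adjusted p of 0.05. All 64 strict rises were higher and all 47 strict falls lower in TAM cells with TPL too, and 61 and 44 of them passed an adjusted p of 0.05 there. Both comparisons shared an estimate of the spread made from all 8 libraries, so these passes are not independent of the strict calls. The median log2 fold change of the strict rises was 3.76 without and 3.34 with TPL, and that of the falls -2.92 and -2.68. Of the 586 rises and 574 falls at an adjusted p of 0.05, 528 (90.1%) and 520 (90.6%) kept their sign, against 62% of all entries, and 260 and 319 passed in the same direction, while 3 and 7 passed in the opposite one.

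Of the leading genes, TMPRSS4 stood at 0.23 and 0.19 FPKM in NT + TPL and at 80 and 81.2 in TAM + TPL cells (8.59, adjusted p = 2.45e-05), and STC1 at 3.61 and 3.56 against 833 and 744 (7.75, adjusted p = 7.5e-06). Among the lists, the median of mitosis and G2/M was 0.97 with TPL, with 12 rises, that of G1/S and DNA replication 0.48 with 4, that of the keratins -1.52 with 7 falls, and that of YAP and TEAD targets -0.30 with 4. The interferon-stimulated genes had 3 rises and 6 falls with TPL, and the ribosomal proteins 22 of 79 values above 0. Whether the lists differed with TPL was not tested.

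The difference of both changes was tested for each entry as an interaction, with 28 entries (0.165%) at an adjusted p of 0.05, 11 of them among the 111 strict calls. In 9 of the 11 the change was smaller with TPL. The libraries that made the strict calls also enter this test. SOCS3 stood at 6.15 and 5.71 FPKM in NT + TPL and at 14 and 18.2 in TAM + TPL cells (log2 fold change 1.42, difference -2.77, adjusted p = 0.0348). PLEKHA6 stood at 39.1 and 28.1 FPKM in NT + TPL and at 33.9 and 24.8 in TAM + TPL cells (-0.21, difference 3.77, adjusted p = 0.0348), so that its groups overlapped. Others were ID3, EGLN3 and PFKFB3, and NT5E, NEDD4L, WWC1, ABTB3 and ANXA8 are further ones of the 11, named after their values were seen. Of the 6 named by the rule, 0 passed with any 1 NT or TAM library left out.

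**Figure D4:**
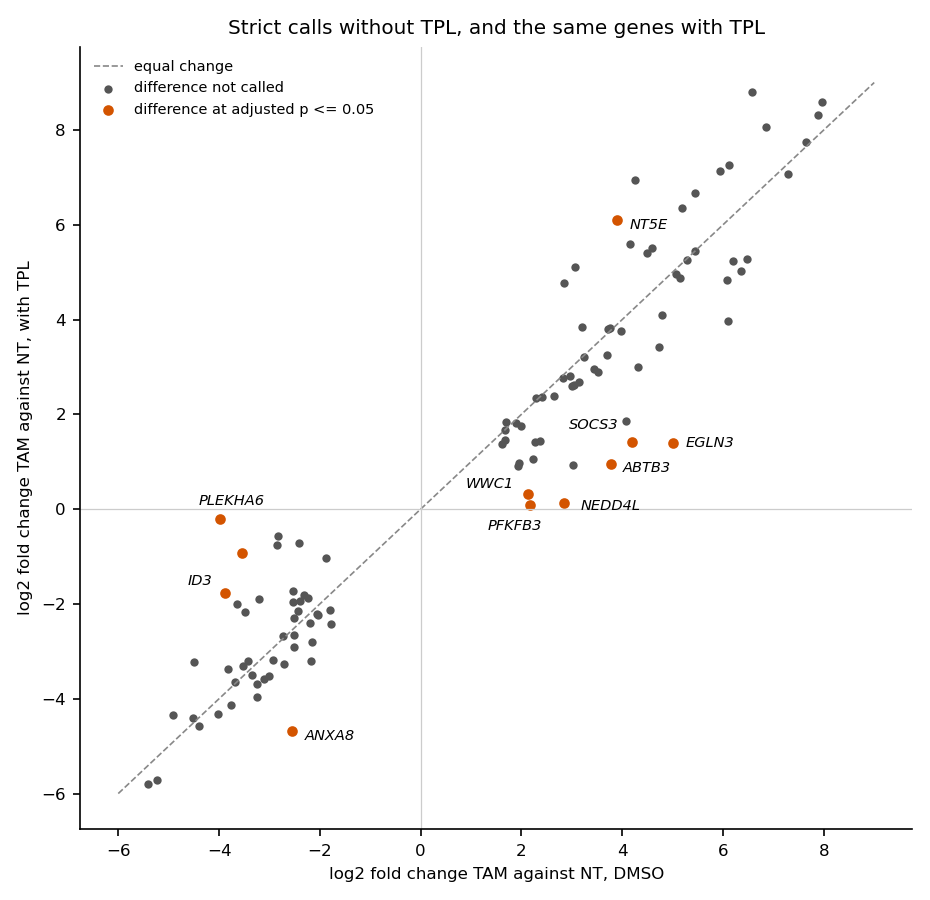
Log2 fold change of TAM against NT cells with DMSO (x axis) and with TPL (y axis) for the 111 strict calls, with the line of equal change; orange points differ between both at an adjusted p of 0.05. All 111 points have the same sign on both axes, and PLEKHA6 (-3.99 and -0.21) and PFKFB3 (2.16 and 0.08) lie near 0 with TPL.

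RNAPII at transcription starts was compared with the RNA, as a readout from other samples. The deposited lists hold 11222 peaks for NT and 11056 for TAM cells, 1 list for each condition. Peak names carry a threshold of 0.02, called cutoff, in the NT list and of 0.1, called q, in the TAM list. The median peak width is 632 bases in the NT list and 406 in the TAM list. These differences between the lists cannot be told apart from a difference between the cells, so that the shares are a description with no test. Of 15280 symbols tested that have a start in GENCODE, 67.3% had a start inside a listed peak in NT and 61.3% in TAM cells, 7.87% in NT alone and 1.83% in TAM alone. Of the 64 strict rises, 29 (45.3%) had one in NT and 44 (68.8%) in TAM cells, and 16 (25%) had it in TAM alone against 1 (1.56%) in NT alone. Of 45 strict falls with a start, 27 (60%) had one in NT and 16 (35.6%) in TAM cells, and 12 (26.7%) had it in NT alone against 1 (2.22%) in TAM alone.

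The 16 rises with a peak in TAM cells alone included STC1, DYSF, SERPINB4, SERPINB3, TNC, SERPINE2, FGL1 and ADAM19. The peaks of SERPINB4 and SERPINB3 lie over promoters that are close copies and may not be separate observations. The starts of SOCS3, CTSL, CTSB and CXCL3 lay in a peak in both conditions. TMPRSS4, GZMB and EVI2B had a start in a listed peak in neither, so that the lists do not show RNAPII at every gene that rose. The 12 falls with a peak in NT cells alone included TNNI2, SYT8, ID3, MMP28, CLU, TRNP1, C3 and TIMP3. KRT81 and C1R had one in neither, and KRT5, KRT17 and CAV1 in both. The wider calls did not all follow this pattern. Of 563 rises at an adjusted p of 0.05, 8.35% had a peak in TAM cells alone but 9.41% in NT cells alone. With a margin of 1000 bases around peaks these shares were 9.24% and 3.91%, against 1.71% and 4.8% of all symbols tested. Of 549 falls, 14.4% had a peak in NT cells alone and 1.82% in TAM cells alone, and 11.8% and 1.82% with the margin.

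**Figure D5:**
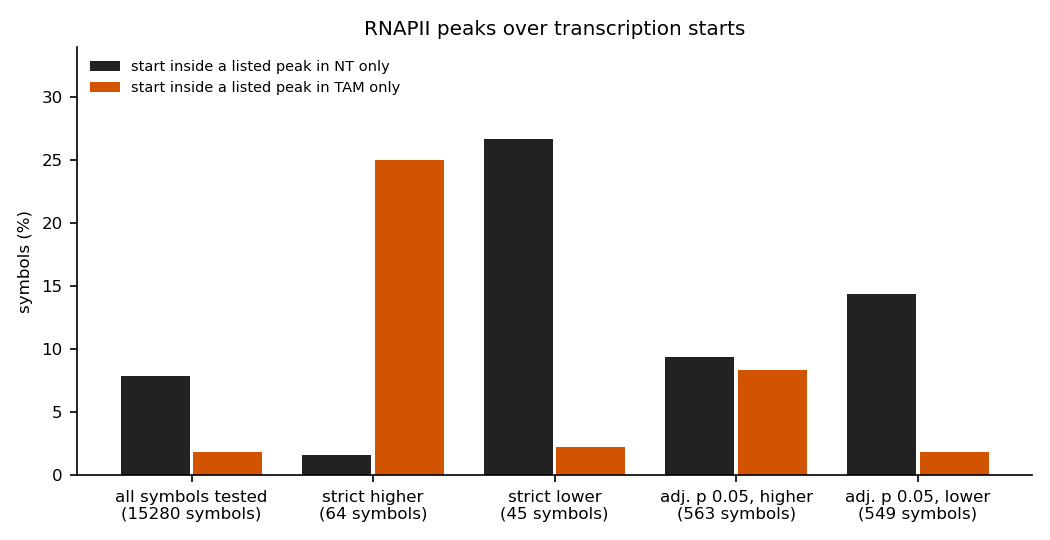
Share of symbols (y axis, %) whose transcription start lay inside a listed RNAPII peak in NT cells alone (black bars) or in TAM cells alone (orange bars), for all symbols tested and for the rises and falls under both rules. The strict rises show 25% in TAM alone against 1.83% of all symbols, and the strict falls 26.7% in NT alone against 7.87%.

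The promoters of TNC and ID3 are shown as examples of a start with a peak in TAM cells alone and in NT cells alone. They come from RefSeq on GRCh38.p14, both on the minus strand, TNC at chr9:115118108-115118407 and ID3 at chr1:23559452-23559751, with 250 bases before and 50 after the start. Capitals mark a match to GGGNNTTCC, a form of the NF-kB motif, 217 bases before the start of TNC, and to TTCNNNGAA, the STAT motif, 181 bases before that of ID3. These letters, read on either strand, occur in 6.6% and 7.88% of the 27305 promoters of the same length. Among the 11956 symbols tested that have a promoter, the shares were 8.05% and 6.45%. Whether the factors act on these genes was not tested.
TNC: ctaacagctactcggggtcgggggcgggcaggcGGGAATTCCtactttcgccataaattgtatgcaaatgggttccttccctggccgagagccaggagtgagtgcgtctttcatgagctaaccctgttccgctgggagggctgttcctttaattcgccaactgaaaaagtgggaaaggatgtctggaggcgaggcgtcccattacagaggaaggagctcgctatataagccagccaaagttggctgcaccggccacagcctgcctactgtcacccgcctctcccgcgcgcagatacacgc
ID3: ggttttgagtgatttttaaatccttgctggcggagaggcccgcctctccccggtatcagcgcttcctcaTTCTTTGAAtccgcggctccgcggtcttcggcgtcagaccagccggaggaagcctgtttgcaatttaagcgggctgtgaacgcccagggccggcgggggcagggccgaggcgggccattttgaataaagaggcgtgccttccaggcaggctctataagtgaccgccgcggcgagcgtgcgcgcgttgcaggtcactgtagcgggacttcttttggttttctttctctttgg
A comparison of motif shares over the strict calls was void, because 43 of 64 rises and 28 of 45 falls had a promoter in the table, under the 80% that such a comparison needs.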

How the data were processed

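RNA-Seq was analysed in 2 NT, 2 TAM, 2 NT + TPL and 2 TAM + TPL libraries. The authors sequenced polyadenylated RNA, aligned reads to reference transcripts with Bowtie2 and made the deposited expected counts and FPKM per gene with RSEM. The tables leave out entries at 0, which were taken as 0. Of the entries, 21077 were matched to symbols by gene ID, 2384 by RefSeq accession and 143 by neither. Expected counts were rounded and filtered with filterByExpr, leaving 16948 entries, scaled by TMM and fitted as 4 group means with edgeR 4.0.16 in R 4.3.3 (quasi-likelihood test, Benjamini-Hochberg adjustment over all entries). Standard errors were taken as the log2 fold change divided by the square root of its F statistic. With 2 libraries a group, p values rest on the spread within groups over all 8 libraries, those with TPL included, moderated across entries. They do not measure the spread of the NT and TAM libraries alone. The fit was tested on simulated data.

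Named genes were the 15 largest strict rises and falls with a mean of at least 1 FPKM and groups that did not overlap, up to 3 called genes each way per list under the same rules, and SRC, ESR1, STAT3, IL6, SOCS3, GAPDH and the markers. Of these, 2 genes are not reported here. Of the 37 gene lists, 5 marker lists and 3 added lists, members and lists were chosen with earlier results of these data known. Alternatives used limma 3.58.1 on log2(FPKM + 1) and log2(FPKM + 0.1) and DESeq2 1.42.0. The authors called RNAPII (8WG16) peaks with MACS over input on hg19 and kept those holding a transcription start. Starts were taken from GENCODE release 44 on that build.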

Additional observations from a re-analysis of the deposited data

Results flagged for a closer look

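For the 5 genes given here the TAM against NT change differed between libraries with and without TPL, by edgeR's test of the difference itself (adjusted p at most 0.05), given here as log2 fold change with minus without TPL. PLEKHA6 differed by 3.77 (adjusted p = 0.0348) and ID3 by 2.11 (adjusted p = 0.0417), both with a smaller fall with TPL. ID3 stood at 18.6 and 17.7 FPKM in NT + TPL and at 5.60 and 5.24 in TAM + TPL cells.

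EGLN3 differed by -3.61 (adjusted p = 0.0425), SOCS3 by -2.77 (adjusted p = 0.0348) and PFKFB3 by -2.08 (adjusted p = 0.0348), all 3 with a smaller rise with TPL. EGLN3 stood at 2.66 and 3.57 FPKM in NT + TPL against 0.23 in both NT libraries, and at 7.27 and 9.44 in TAM + TPL cells. PFKFB3 stood at 40.2 and 35.4 FPKM in NT + TPL and at 38.3 and 42.5 in TAM + TPL cells, so that its groups overlapped with TPL. What sets these genes apart was not tested.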

How the results depend on the processing

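Size factors of DESeq2, library size and upper quartile scaling kept the counts within 1.5 times of those reported. With GAPDH as reference the strict rule gave 36 higher and 73 lower, adjusted p 0.05 gave 321 and 1687, 1 of the 6 genes kept a difference with TPL, and STAT3 turned to -0.10. Without a filter the strict falls were 80. With at least 10 counts in all libraries the strict calls were 153 and 170 and the genes differing with TPL 18. In the 4 NT and TAM libraries alone the strict calls were 0 and 0, with 518 and 498 at 0.05 and 3380 entries of the reported fit at an unadjusted p of 0.05. limma on log2(FPKM + 1) gave 81 strict falls and 15 genes differing with TPL, and 10 with log2(FPKM + 0.1). Summing entries of a symbol gave 230 and 233 strict calls, 881 falls at 0.05 and 28 genes differing with TPL. The length offset gave 12 such genes. DESeq2 gave 390 and 355 strict calls, 1042 and 1024 at 0.05 and 55 such genes. Adjusted p 0.05 with a log2 fold change of 1.2 gave 428 and 398. The cause was not tested.

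Leaving out each library in turn gave 0 to 4 strict rises, 0 strict falls, 225 to 235 rises and 206 to 246 falls at 0.05, 56 to 61 strict rises and 43 strict falls called with TPL, and 0 genes differing with TPL. The lone library left in a group is assumed to vary like the other groups. The libraries with TPL stayed in every such fit. Libraries of the same replicate number did not deviate together (correlations of -0.113 to 0.0472), so the numbers were not taken as pairs. A replicate block gave 28 and 9 strict calls, 411 and 415 at 0.05 and 0 genes differing with TPL. Totals of 8099426 to 8349448 counts and 2 libraries per group limit what can be called among genes of low level.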

Other observations

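The alpha-globin genes were singled out after their values were seen. HBA1 was listed at no count in either NT library and stood at 63.6 and 80.6 FPKM in TAM cells (adjusted p = 0.001, just above the strict rule), and HBA2 stood at 3.51 and 3.31 FPKM in NT and at 55.6 and 28.9 in TAM cells (3.64 ± 1.44, adjusted p = 0.22). Both encode the same protein, and reads of their mRNAs are divided between them with uncertainty.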
